A study of Mus musculus with 44 samples.

Results

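The 44 mice carry animal numbers of 2 series in their descriptions, and the livers of the 21 mice whose 4-digit number starts with 27 were compared with those of the 23 mice whose number starts with 24. All 44 samples of the study were used, each one mouse and one Affymetrix array. The mice were male C57BL/6N of 11 to 12 weeks. They had eaten for 4 weeks either the control diet, with vitamin E at 149 IU/kg and no added vitamin C, or the vitamin E diet, with vitamin E at 2000 IU/kg and vitamin C at 100 mg/kg. Exercised mice ran for 60 min at 13 m/min uphill at 14°, and sedentary mice stayed beside the treadmill without food for 60 min. Both number series held mice of all 4 groups. Series 24 and series 27 had 6 and 4 sedentary control mice, 6 and 6 exercised control mice, 5 and 5 sedentary vitamin E mice, and 6 and 6 exercised vitamin E mice. The sources used here do not say what the first digits of the number stand for, so a delivery, a day of killing or a round of tissue and array work that followed the numbers cannot be told apart from the series itself.

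The liver makes cholesterol from acetyl-CoA through mevalonate, squalene and lanosterol. The enzymes of this route are switched on together by the transcription factor SREBP-2 when sterols in the endoplasmic reticulum run low, and Insig proteins hold the factor back when sterols are plentiful. Fatty acid oxidation genes of the liver answer to PPAR-alpha, a nuclear receptor for fatty acids that is active in the fasted state. Acute-phase proteins are secreted by hepatocytes in response to inflammatory cytokines. These systems move with feeding, hour of day and infection, and all were followed here across the number series.

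The livers of series 27 held more transcript of cholesterol synthesis enzymes, of the fatty acid hydroxylase Cyp4a14 and of the exporter Abcc3 than those of series 24, and less of the secreted protease inhibitor-like protein Wfdc2, of apolipoprotein Apoa4 and of the RNase P RNA Rpph1. With the 4 diet and exercise groups as a covariate, limma called 334 of 18522 probe sets at an adjusted p under 0.05, which is 1.80% of those tested. In series 27, 211 were higher (1.14%) and 123 were lower (0.664%). At an unadjusted p under 0.05 there were 2682 probe sets, where 926.1 would be expected without any difference. The called differences were small: their median size was 0.31 on the log2 scale, 199 exceeded 1.2-fold (134 higher, 65 lower), and 18 higher and 16 lower probe sets exceeded 1.5-fold. The median difference over all tested probe sets was 0.0046. P-values weigh the difference against the spread between mice of the same group and series. They do not measure how far other number series would vary.

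Arrays of the 2 series had similar distributions. The deposited values had already been normalized over arrays, so this similarity cannot show that the series were technically alike. The median of an array over the tested probe sets was 4.00 to 4.22 in series 24 and 4.06 to 4.20 in series 27. Of 8 tested genes that define hepatocytes 0 were called, with 4 differences above 0, 4 below and a median of 0.0005, and without exercised control mice 3 and 6, 1 was called lower. The spread within groups was larger in series 24, for 65.2% of probe sets, with a median standard deviation of 0.338 against 0.307. Of the 6 leading principal components, the second held 4.13% of the variance and the series accounted for 38.7% of it. Its range was -47.4 to 9.84 in series 24 and -0.91 to 17.8 in series 27. Exercised control mice 3 and 6, sedentary control mouse 3 and sedentary vitamin E mouse 1, all of series 24, lay farthest out on it. Without these 4 mice limma called 225 probe sets (136 higher, 89 lower), 185 of them among the 334.

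Promoter sequences are shown for the 3 called cholesterol synthesis genes whose windows held the most copies of CCAAT, since SREBP-2 is known to act together with the factor NF-Y, whose recognition sequence is CCAAT. The windows come from RefSeq (GRCm38.p6), run from 250 bases before to 50 after the start of the gene and are printed 5′ to 3′ on the strand of the gene. Capitals mark CCAAT on either strand (ATTGG where it lies on the other strand) and the sterol-response-like TCACNCNAC on either strand. The windows are those of Hsd17b7 (chr1:169969156-169969455, minus strand), Msmo1 (chr8:64733529-64733828, minus strand) and Nsdhl (chrX:72918271-72918570, plus strand).
Hsd17b7: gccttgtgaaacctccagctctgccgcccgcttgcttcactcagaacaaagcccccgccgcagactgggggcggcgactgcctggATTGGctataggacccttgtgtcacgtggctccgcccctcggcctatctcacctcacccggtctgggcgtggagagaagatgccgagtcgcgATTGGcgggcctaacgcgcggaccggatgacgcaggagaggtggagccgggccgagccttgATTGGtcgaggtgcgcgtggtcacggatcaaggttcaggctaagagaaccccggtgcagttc
Msmo1: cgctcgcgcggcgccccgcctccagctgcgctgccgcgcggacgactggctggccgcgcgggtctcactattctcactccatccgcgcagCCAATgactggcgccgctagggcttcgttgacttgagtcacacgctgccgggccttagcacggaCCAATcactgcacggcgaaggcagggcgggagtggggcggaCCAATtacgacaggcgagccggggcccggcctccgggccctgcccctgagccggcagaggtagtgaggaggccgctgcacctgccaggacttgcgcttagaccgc
Nsdhl: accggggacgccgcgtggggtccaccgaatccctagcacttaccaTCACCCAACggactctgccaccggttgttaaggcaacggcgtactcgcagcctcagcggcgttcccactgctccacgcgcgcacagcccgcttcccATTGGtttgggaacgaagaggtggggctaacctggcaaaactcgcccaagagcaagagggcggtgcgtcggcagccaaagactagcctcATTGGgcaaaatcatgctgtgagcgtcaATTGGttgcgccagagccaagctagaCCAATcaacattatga
Hsd17b7 and Msmo1 held 3 copies of CCAAT each and Nsdhl held 4, with 1 copy of TCACNCNAC. The windows of Cyp51 and Insig1, not printed, held 1 copy of CCAAT each and none of TCACNCNAC. A window was found for 5 of the 7 called genes of the list and for 14 of its 18 tested genes. CCAAT lay in a window of all 5 and all 14, and in 37.4% of the 32851 promoter windows of the table. Here and below a gene was counted if any of its windows held the sequence, while the percentages are of single windows, an unlike measure. TCACNCCAC, a stricter form, lay in 1.24% of all windows, in none of the 5 and in 1 of the 14. TCACNCNAC, which includes it, lay in 2.7% of all windows, in 1 of the 5 and in 2 of the 14. These are matches of letters and no measure of binding.

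Among the gene lists with at least 5 tested genes, cholesterol synthesis had the largest median difference and the largest share of called genes. Of 18 tested genes, 7 were called (38.9%), all higher in series 27, where 1.80% of all tested probe sets were called in either direction. All 18 differences were above 0, against 51.2% of all tested probe sets, and their median was 0.41. The mean log2 level over the list was 6.10, 6.86 and 7.65 in the lowest, median and highest mouse of series 24, and 6.83, 7.23 and 7.87 in series 27. The ranges overlapped, and the lowest mouse of series 27 lay close to the median of series 24. The median difference was 0.21 in sedentary control, 0.27 in exercised control, 0.54 in sedentary vitamin E and 0.64 in exercised vitamin E mice. Without the 4 outlying mice, 7 genes were called and the median was 0.41.

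Hsd17b7, a ketosteroid reductase that acts late in cholesterol synthesis, had the smallest p of all that was tested. Its log2 level was 5.68, 6.47 and 7.17 in the lowest, median and highest mouse of series 24, and 6.72, 7.05 and 7.42 in series 27. In sedentary mice of either diet the series did not overlap: the highest series 24 mouse was at 6.97 on the control and 6.69 on the vitamin E diet, the lowest series 27 mouse at 6.98 and 6.78. In exercised mice they overlapped. Of all 23 series 24 mice, 20 lay below the lowest mouse of series 27. The difference was 0.57 (standard error 0.08, adjusted p = 8.25e-05), a 1.49-fold higher level, and it was 0.51, 0.55, 0.60 and 0.63 in the sedentary control, exercised control, sedentary vitamin E and exercised vitamin E groups.

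Sqle, squalene epoxidase, which makes the first oxygenated intermediate of the sterol branch, showed the second largest difference among the higher genes with 1 symbol. It was at 4.66, 6.20 and 8.04 in the lowest, median and highest mouse of series 24, and at 6.42, 7.04 and 8.40 in series 27. All 21 mice of series 27 lay above the median of series 24, although the ranges overlapped. The difference was 0.93 (standard error 0.20, adjusted p = 0.00812), a 1.9-fold higher level, and lay between 0.79 and 1.06 in the 4 groups.

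The other called genes cover the steps on both sides of lanosterol. Fdft1, squalene synthase, was at 8.45 ± 0.38 (SD, n = 23) in series 24 and 8.88 ± 0.26 (SD, n = 21) in series 27 (difference 0.45, adjusted p = 0.0123). Cyp51, the lanosterol demethylase, was at 6.53 ± 0.51 and 7.10 ± 0.33 (difference 0.57, adjusted p = 0.0118). Msmo1 and Nsdhl remove the methyl groups next to the sterol hydroxyl. Msmo1 was at 6.89 ± 0.46 and 7.43 ± 0.32 (difference 0.55, adjusted p = 0.00865), with all 21 mice of series 27 above the median of series 24. Nsdhl was at 7.48 ± 0.67 and 8.14 ± 0.41 (difference 0.66, adjusted p = 0.0249), and 17 of 21 lay above that median. Insig1, the sterol-dependent brake on SREBP-2 and itself one of its targets, was at 9.13 ± 0.29 and 9.51 ± 0.40 (difference 0.38, adjusted p = 0.0446), and was not called after quantile normalization (adjusted p = 0.0512) or without the 4 outlying mice (adjusted p = 0.0854).

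**Figure D1:**
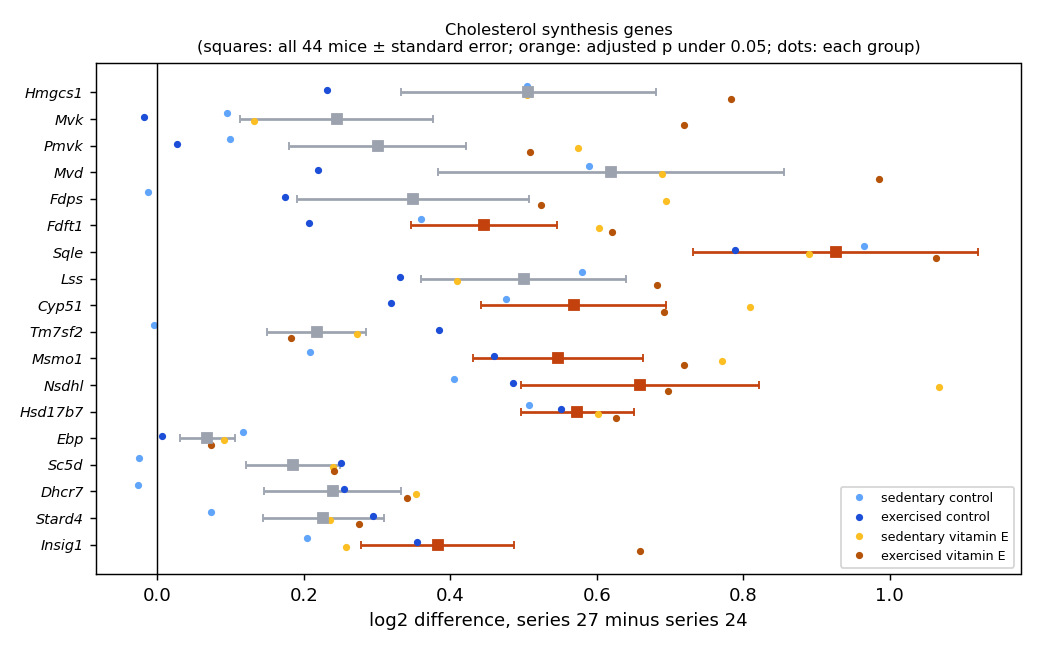
Log2 difference between series 27 and series 24 (x axis) for the 18 tested cholesterol synthesis genes, in the order of the pathway with Stard4 and Insig1 last. Squares give the difference over all 44 mice with its standard error, orange where the adjusted p was under 0.05, and dots give the 4 groups; all 18 squares lie to the right of 0, from 0.07 for Ebp to 0.93 for Sqle.

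The remaining 11 genes of the list lay on the same side without a call. Lss, lanosterol synthase, missed the threshold with a difference of 0.50 (adjusted p = 0.0505). Hmgcs1, which forms HMG-CoA at the start of the mevalonate route, differed by 0.51 (adjusted p = 0.132), Mvd by 0.62 (adjusted p = 0.188) and Fdps by 0.35 (adjusted p = 0.288). Ebp, a sterol isomerase, had the smallest difference with 0.07 (adjusted p = 0.411). The gene for SREBP-2 itself, Srebf2, differed by 0.10 (adjusted p = 0.672), and the gene of its relative for fatty acid synthesis, Srebf1, by 0.22 (adjusted p = 0.542). None of 21 fatty acid and triglyceride synthesis genes was called, with 13 above 0 and a median of 0.03.

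Among the fatty acid oxidation and PPAR-alpha target genes, 4 of 21 were called (19.0%), all higher in series 27, against 1.80% of all tested probe sets and 4.33% of those at a mean log2 level of 7 to 9, where the median of the list lay. With no filter on low values 0 of the 21 were called, Cyp4a14 included. Cyp4a14, a fatty acid omega-hydroxylase and a classical PPAR-alpha target, had the largest difference of all higher genes with 1 symbol. Its log2 level was 2.28, 6.95 and 8.83 in the lowest, median and highest mouse of series 24, and 6.60, 8.35 and 9.86 in series 27. The ranges overlapped, with 11 of 23 series 24 mice below all of series 27. The difference was 1.64 (standard error 0.41, adjusted p = 0.0254), a 3.12-fold higher level, and it lay between 1.47 and 1.91 in the 4 groups.

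The other called genes of that list take part in beta-oxidation and differed less. The mitochondrial trifunctional protein subunit Hadha differed by 0.18 (adjusted p = 0.0315), the thiolase Acaa2 by 0.14 (adjusted p = 0.0272) and the peroxisomal bifunctional enzyme Ehhadh by 0.37 (adjusted p = 0.0468). Cpt1a, the gatekeeper of mitochondrial fatty acid entry, differed by 0.02 (adjusted p = 0.941), Ppara by -0.06 (adjusted p = 0.776) and Fgf21, a fasting hormone of the liver, by -0.06 (adjusted p = 0.929). The list as a whole had 14 differences above 0 and a median of 0.06. Without the 4 outlying mice 2 of its genes were called, and Hadha and Acaa2 lost the call (adjusted p = 0.0885 and 0.09).

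**Figure D2:**
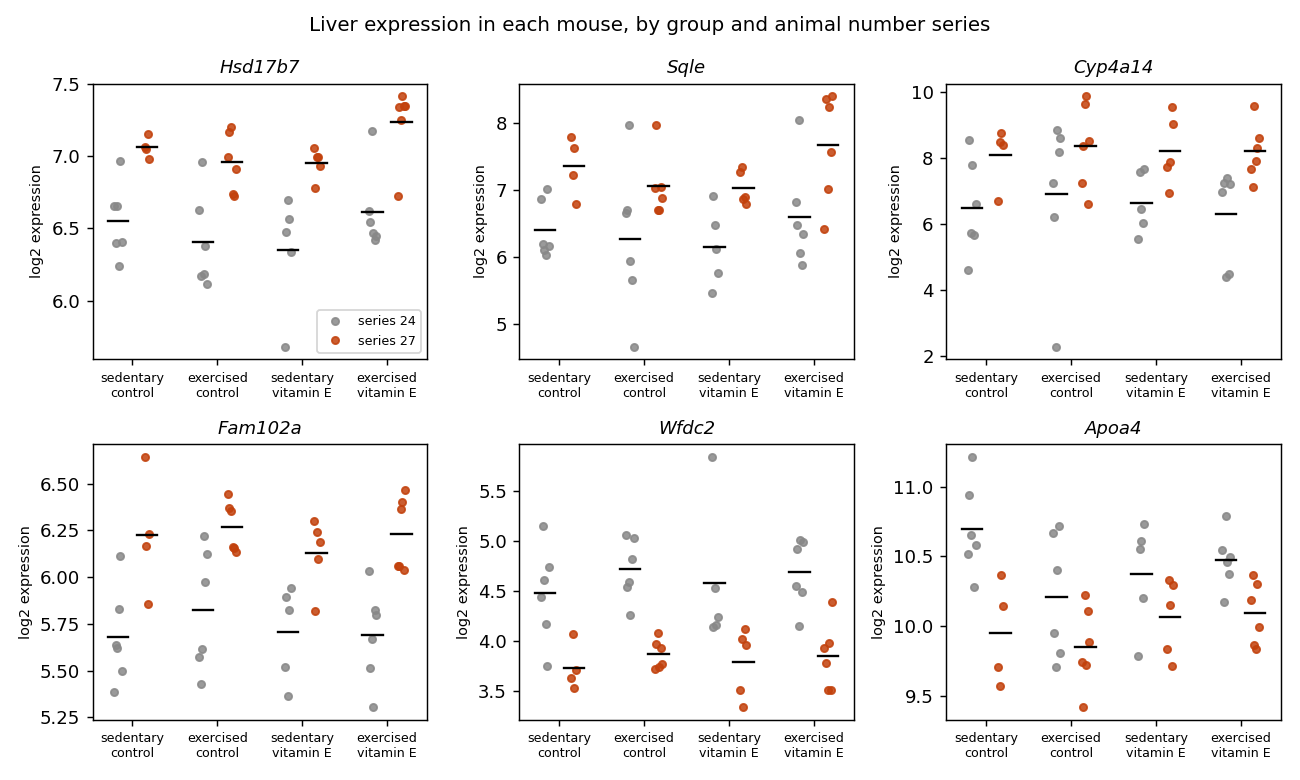
Log2 expression (y axis) of 6 genes in each of the 44 mice, by diet and exercise group (x axis) and number series (grey 24, orange 27), with bars at the means. Series 27 means lie above those of series 24 in all 4 groups for Hsd17b7, Sqle, Cyp4a14 and Fam102a, and below them for Wfdc2 and Apoa4. The same direction in all 4 groups was a condition for naming these genes.

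Bile acid genes, which draw on cholesterol, and the export and detoxification genes showed single calls. Of 15 bile acid genes, 2 were called (13.3%), both higher in series 27, against 1.80% of all tested probe sets, 4.33% at a mean log2 level of 7 to 9 and 6.91% above 9. With so few genes, nothing is read from that share. Cyp27a1, the sterol hydroxylase that opens the acidic route of bile acid synthesis, differed by 0.20 (adjusted p = 0.0123). Cyp7b1, the next enzyme of that route, differed by 0.46 (adjusted p = 0.0327), by 0.74 and 0.80 in sedentary and exercised control mice and by 0.22 and 0.08 in sedentary and exercised vitamin E mice. The change of the series difference with diet had an unadjusted p of 0.00804 for Cyp7b1, and no probe set passed the adjusted threshold for that term. Cyp7a1, the rate-limiting enzyme of the classical route, differed by 0.47 (adjusted p = 0.0639).

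Of 13 NRF2 target genes, which serve defence against oxidants and electrophiles, 3 were called (23.1%), all higher in series 27, against the 1.80% of all tested probe sets and 4.33% at a mean log2 level of 7 to 9. Abcc3, which exports conjugated compounds from the hepatocyte into blood, was at 5.53, 7.11 and 8.06 in the lowest, median and highest mouse of series 24 and at 7.23, 7.67 and 8.18 in series 27. It differed by 0.59 (standard error 0.11, adjusted p = 0.00332), with 15 of 23 series 24 mice below all of series 27. The retinal dehydrogenase Aldh1a1 differed by 0.20 (adjusted p = 0.0123) and the epoxide hydrolase Ephx1 by 0.37 (adjusted p = 0.0245). Outside the list, the glutathione transferase Gstm1 was higher by 0.26 (adjusted p = 0.00681), and Gstp3, of the pi class, was lower by 0.56 (adjusted p = 0.00291). None of 15 xenobiotic P450 genes was called.

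The other genes named for the size of their difference had mixed roles. Nrp2, a coreceptor for VEGF-C and semaphorins, was at 2.33, 2.80 and 3.47 in the lowest, median and highest mouse of series 24 and at 2.78, 3.53 and 4.51 in series 27. It differed by 0.66 (adjusted p = 0.00107). Susd4, a complement regulator, differed by 0.66 (adjusted p = 0.00331), and by 1.26 in exercised control mice, where it was 1 of 3 probe sets called within that group (adjusted p = 0.0298). In the other groups Susd4 differed by 0.39 to 0.48. Dpysl2, which binds tubulin, differed by 0.63 (adjusted p = 0.00107), and all 21 mice of series 27 exceeded the median of series 24. Csad, which makes the precursor of taurine, differed by 0.55 (adjusted p = 0.0432), and Gpx6, of the glutathione peroxidase family, by 0.61 (adjusted p = 0.0354). Csad differed by 1.12 in sedentary vitamin E mice and by 0.32 to 0.44 in the other groups. Gpx6 differed by 0.06 and 0.26 in sedentary control and sedentary vitamin E mice. In exercised control and exercised vitamin E mice it differed by 0.92 and 1.03. Both Csad and Gpx6 lost the call without the 4 outlying mice (adjusted p = 0.156 and 0.079).

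Some genes with smaller differences were named because their p was among the smallest, which favours genes with little spread. Their regularity across mice thus follows in part from that choice. Fam102a differed by 0.49 (adjusted p = 0.000245), the splicing factor gene Mbnl2 by 0.41 (adjusted p = 0.000322), and Them7 by 0.39 (adjusted p = 0.00103). Each had all 21 mice of series 27 above the median of series 24. The other 2 probe sets of Mbnl2 differed by 0.31 and 0.35 and were also called. Aldh7a1, an enzyme of lysine degradation, was at 8.00, 8.28 and 8.48 in the lowest, median and highest mouse of series 24 and at 8.33, 8.51 and 8.65 in series 27. It differed by 0.22 (adjusted p = 0.000659), and within exercised control mice by 0.34 (adjusted p = 0.047). With no filter on low values 0 probe sets were called within that group, neither Susd4 nor Aldh7a1 among them.

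Enzymes of amino acid metabolism were also among the called genes, here named after their values were seen. Got2, the mitochondrial aspartate aminotransferase, differed by 0.23 (adjusted p = 0.00217), Abat, which degrades GABA, by 0.28 (adjusted p = 0.00285), Gcdh, of lysine and tryptophan breakdown, by 0.19 (adjusted p = 0.00291) and Shmt2, of mitochondrial serine and glycine metabolism, by 0.31 (adjusted p = 0.00623). All 4 were higher in series 27 in every group. None of the 23 genes of the amino acid catabolism and urea cycle list was called, with 17 above 0 and a median of 0.05.

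**Figure D3:**
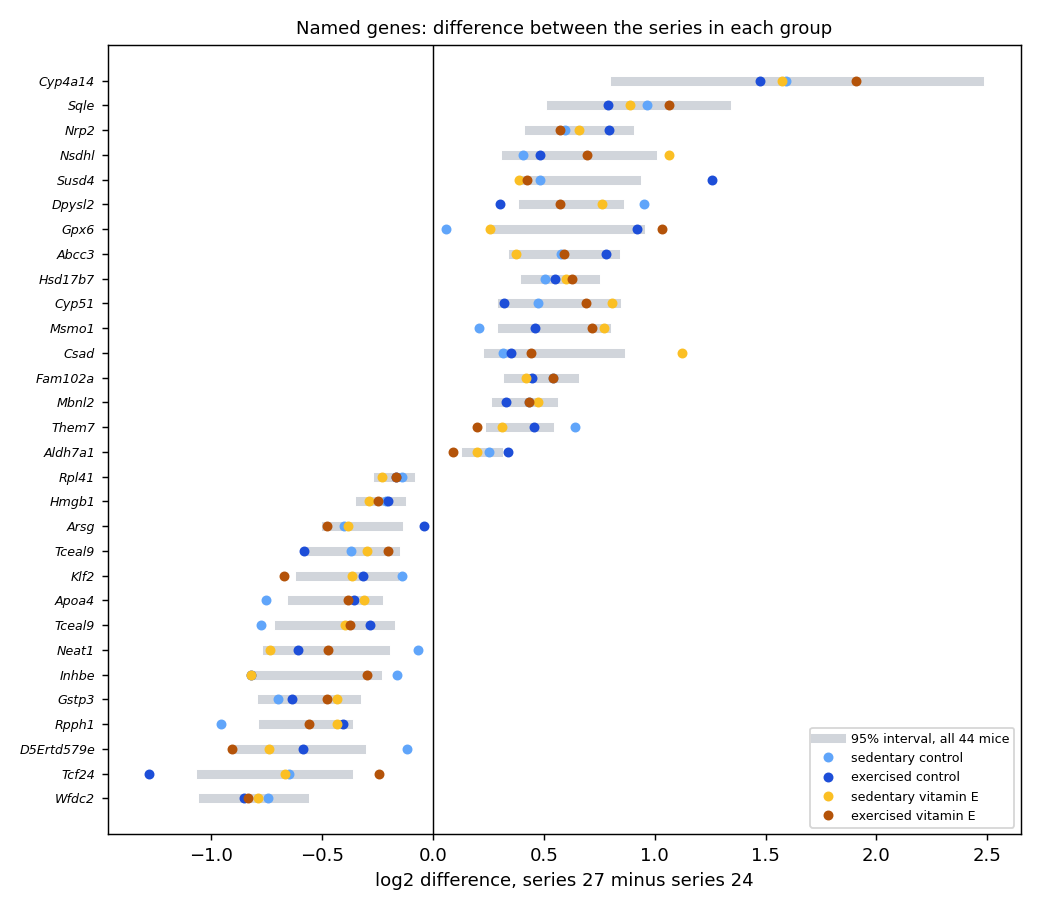
Log2 difference between series 27 and series 24 (x axis) for the named genes, with the 95% interval over all 44 mice as a grey bar and the difference within each of the 4 groups as a dot. All dots lie on the side of the overall difference, which was a condition for naming every gene shown. They lie closely together for Hsd17b7 and Wfdc2 and more widely for Gpx6, Tcf24 and Susd4.

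Wfdc2, a secreted protein of the whey acidic protein family related to protease inhibitors, had the largest difference among the named genes lower in series 27. Its log2 level was 3.75, 4.55 and 5.84 in the lowest, median and highest mouse of series 24, and 3.34, 3.78 and 4.39 in series 27. All 21 mice of series 27 lay below the median of series 24, and the series did not overlap in exercised control mice, at 4.26 to 5.06 against 3.72 to 4.08, nor in sedentary vitamin E mice, at 4.14 to 5.84 against 3.34 to 4.12. The difference was -0.81 (standard error 0.11, adjusted p = 9.3e-05), a 1.75-fold higher level in series 24. It was -0.74, -0.85, -0.79 and -0.83 in the sedentary control, exercised control, sedentary vitamin E and exercised vitamin E groups.

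Apoa4, an apolipoprotein of chylomicrons and high-density lipoprotein that is regulated by feeding, was at 9.71, 10.5 and 11.2 in the lowest, median and highest mouse of series 24 and at 9.42, 10.0 and 10.4 in series 27. All 21 mice of series 27 lay below the median of series 24, while the ranges overlapped. It differed by -0.44 (standard error 0.10, adjusted p = 0.011), and by -0.75 in sedentary control mice against -0.31 to -0.38 in the others. Of the 19 apolipoprotein and lipid transport genes, Apom, a carrier of sphingosine phosphate, was the other one called, higher by 0.15 (adjusted p = 0.0282). The share called was 10.5%, against 1.80% of all tested probe sets, 4.33% at a mean log2 level of 7 to 9 and 6.91% above 9. The remaining 17 were not called, and the median of the list was -0.0030.

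Several of the other lower transcripts are not translated. Rpph1, the RNA part of RNase P, was at 9.20, 9.95 and 10.55 in the lowest, median and highest mouse of series 24 and at 8.89, 9.30 and 10.38 in series 27 (difference -0.57, adjusted p = 0.000792). Neat1, the scaffold RNA of nuclear paraspeckles, differed by -0.48 (adjusted p = 0.0443), and lost the call without the 4 outlying mice (adjusted p = 0.0841). It differed by -0.07 in sedentary control mice and by -0.47 to -0.74 in the other groups. The minor spliceosome RNA Rnu11 differed by -0.31 (adjusted p = 0.0137), the probe set of the microRNA gene Mir194-1 by -0.47 (adjusted p = 0.0226), that of Mir449b by -0.27 (adjusted p = 0.0233), and that of Mir5099 by 0.74 in the other direction (adjusted p = 0.0491). Across 146 small RNA probe sets 1 was called higher and 4 lower, with a median difference of -0.07 and 67.1% below 0. The share called was 3.42%, against 1.80% of all tested probe sets. The 6079 probe sets without a symbol had 29 calls higher and 62 lower, against 172 higher and 43 lower for the 10886 of protein-coding genes. The shares called were 1.5% and 1.98%, both near the 1.80% of all tested probe sets. Of all tested, 1.14% were called higher and 0.664% lower.

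Protein-coding genes were also among the lower ones. Inhbe, a hepatic activin subunit, differed by -0.53 (adjusted p = 0.0351) and lost the call without the 4 outlying mice (adjusted p = 0.0739). It differed by -0.16 and -0.82 in sedentary and exercised control mice, and by -0.82 and -0.30 in sedentary and exercised vitamin E mice. Klf2, a transcription factor of endothelial cells, differed by -0.39 (adjusted p = 0.0446) at a low log2 level of 2.29 in series 24. Arsg, a lysosomal sulfatase, differed by -0.32 (adjusted p = 0.0283), and the low-level transcripts Tcf24 and D5Ertd579e by -0.71 and -0.61. In exercised control mice Arsg differed by -0.04, against -0.38 to -0.48 in the other groups. The other 2 probe sets of D5Ertd579e were not called and differed by -0.06 and 0.19. Both probe sets of Tceal9 were called, with -0.44 and -0.37. The chromatin protein gene Hmgb1 differed by -0.24 on 1 probe set (adjusted p = 0.00355) and by -0.15 on the other (adjusted p = 0.104), and for Rpl41, a ribosomal protein gene, 1 of 5 probe sets was called (difference -0.17, adjusted p = 0.00567). Hmgb1 and Rpl41 have near-identical copies in the genome that probes may share.

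Whether the series differed in every group was asked in 3 ways. Of the 334 called probe sets, 326 (97.6%) had the same sign in all 4 groups, against 23.5% of all tested; the call used these same mice, so the share is a description. At an unadjusted p under 0.05 with that sign, 19 of the 334 passed in all 4 groups, 80 in 3, 149 in 2, 84 in 1 and 2 in none. Within single groups limma called 3 probe sets in exercised control mice and 0 in each of the other groups, with 1384, 1395, 1024 and 1085 probe sets at an unadjusted p under 0.05 in sedentary control, exercised control, sedentary vitamin E and exercised vitamin E mice, where 926.1 would be expected. With 4 to 6 mice a series, groups taken singly held few calls.

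The second way called probe sets in 3 groups and looked at the fourth, which shares no mouse with the call. Called without sedentary control mice were 126 probe sets, of which 82.5% had the same sign in those mice, against 58.3% of all tested. Without exercised control mice the numbers were 95 probe sets and 91.6%, also against 58.3%. Without sedentary vitamin E mice they were 64 and 95.3%, against 60.4%, and without exercised vitamin E mice 29 and 100%, against 60.6%. At an unadjusted p under 0.05 in the same direction, 31.7%, 43.2%, 42.2% and 44.8% of them passed in the left-out group, against 7.47%, 7.53%, 5.53% and 5.86% of all tested. The direction thus recurred in mice not used for the call, with the lowest share in sedentary control mice, of which series 27 had 4. The size was smaller in every left-out group. The median was 0.40 in the calling groups and 0.21 in the left-out sedentary control mice. It was 0.36 and 0.20 for exercised control, 0.38 and 0.27 for sedentary vitamin E, and 0.46 and 0.23 for exercised vitamin E mice.

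The third was a test of the difference between groups. The interaction of series and group called 0 probe sets in limma, and 684 had an unadjusted p under 0.05. The change of the series difference with exercise called 0 (764 unadjusted), that with diet 0 (700 unadjusted) and that with both together 0 (762 unadjusted). Among the 334 called probe sets 11 had an interaction p under 0.05. The smallest interaction p belonged to Avpr2, the vasopressin receptor, at a low log2 level of 2.34 in series 24, with differences of 0.31, -0.57, 0.59 and -0.13 in sedentary control, exercised control, sedentary vitamin E and exercised vitamin E mice (adjusted p = 0.564). Cdc45, a helicase component of DNA replication, and Lilrb4a, an inhibitory receptor of myeloid cells, followed with adjusted p of 0.564 and 0.615. A p above the threshold does not show that the groups were alike.

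**Figure D4:**
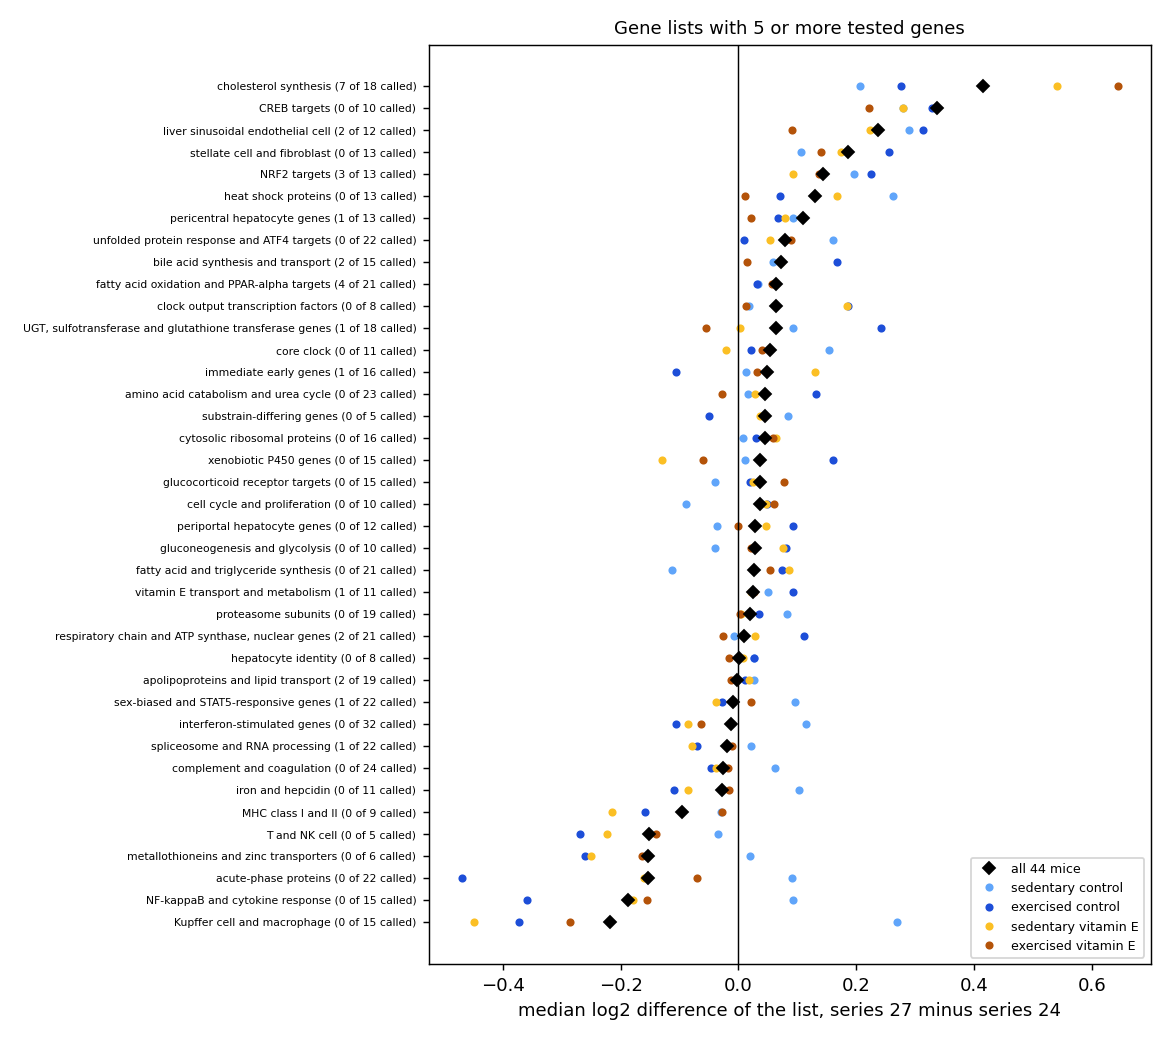
Median log2 difference between series 27 and series 24 (x axis) for each gene list with at least 5 tested genes, over all 44 mice (black) and within each group (coloured dots), with the number of called genes in the label. Cholesterol synthesis lies at the top with 0.41, and Kupffer cell genes at the bottom with -0.22, where the sedentary control dot lies at 0.27 on the other side.

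Of the markers of other liver cells, 2 were called, both of sinusoidal endothelial cells. They are 16.7% of that list, against 1.80% of all tested probe sets and 2.15% at a mean log2 level of 5 to 7. Of all tested probe sets, 51.2% were above 0. In bulk liver, fewer cells of a type and less RNA per cell cannot be told apart. All 12 markers of sinusoidal endothelial cells were above 0, with a median of 0.24, and the mean level of the list ranged from 4.87 to 5.71 in series 24 and from 5.30 to 6.05 in series 27. Called were Dnase1l3, a secreted nuclease, with 0.39 (adjusted p = 0.011), and Oit3 with 0.36 (adjusted p = 0.0445), of which Oit3 lost the call without the 4 outlying mice (adjusted p = 0.0936). Of the 12 markers, 1 was called with no filter, after quantile normalization, and with equal weight of the groups. With median centring and with array weights 2 were called, and with a stricter filter 4 of 8. Eng, the endothelial TGF-beta coreceptor, which is outside the list and was named after its values were seen, was higher by 0.34 (adjusted p = 0.00285). Klf2, the transcription factor of endothelial cells named above and also outside the list, went the other way with -0.39 (adjusted p = 0.0446). All 13 stellate cell and fibroblast markers were above 0 with a median of 0.19 and 0 called, and the list ranged from 4.22 to 5.19 in series 24 and from 4.48 to 5.21 in series 27. Bgn, a matrix proteoglycan chosen after its values were seen, was called on 2 probe sets with 0.51 and 0.30 (adjusted p = 0.00318 and 0.0202). The part of cell make-up in the results above was not tested.

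The highest levels of acute-phase and Kupffer cell genes lay in a few mice of series 24. All 22 acute-phase genes were below 0 with a median of -0.15, 0 were called and 5 had an unadjusted p under 0.05. The direction was not the same in every group: the median was 0.09 in sedentary control mice, and -0.47, -0.16 and -0.07 in exercised control, sedentary vitamin E and exercised vitamin E mice. The mean of the list was 7.95, 8.38 and 10.70 in the lowest, median and highest mouse of series 24, and 7.95, 8.34 and 8.75 in series 27. The medians were thus close and the high values of series 24 came from few mice. Without exercised control mice 3 and 6 the median of the list was -0.06, and without the 4 outlying mice it was -0.03 with 14 of 22 below 0. Kupffer cell and macrophage markers were below 0 for 14 of 15 genes with a median of -0.22 and 0 called, ranging as a list from 3.98 to 6.33 and from 3.88 to 5.36 in series 24 and 27. In sedentary control mice their median was 0.27. The neutrophil genes S100a8 and S100a9, the only 2 tested of their list, had a median of -0.75 over all mice and of -0.29 without exercised control mice 3 and 6, and 0 were called. In sedentary control mice their median was 0.73, on the other side. Their mean level reached 7.14 in exercised control mouse 6 of series 24, and was also raised in single mice of series 27, up to 3.98 in sedentary control mouse 8. The fit without the 4 outlying mice, with a median cholesterol synthesis difference of 0.41, left out only some of the mice with high levels. It kept exercised vitamin E mouse 2 of series 24, with an acute-phase mean of 9.35 and a Kupffer cell mean of 5.95. It left out sedentary control mouse 3, which was low in both lists (8.16 and 3.98). The part of all mice with high levels in the cholesterol synthesis result was not tested.

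**Figure D5:**
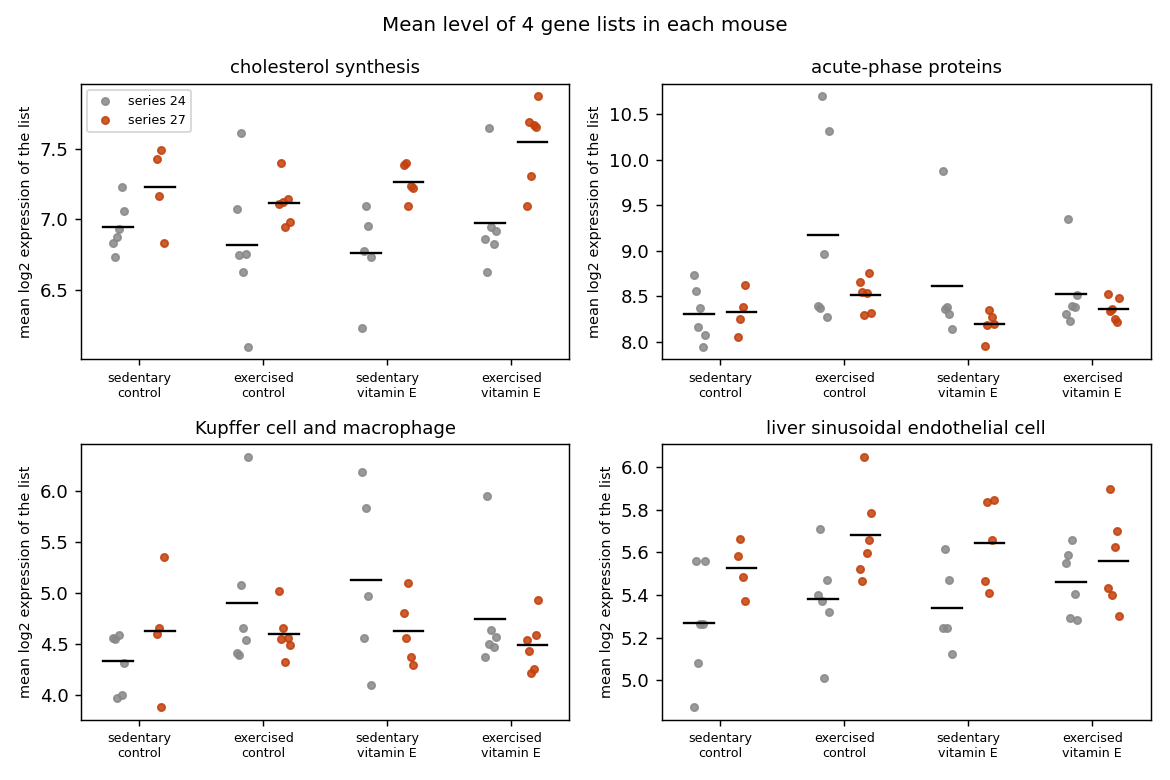
Mean log2 level of 4 gene lists (y axis) in each of the 44 mice, by group (x axis) and number series (grey 24, orange 27), with bars at the means. The cholesterol synthesis mean of series 27 lies above that of series 24 in all 4 groups, while the acute-phase and Kupffer cell lists are set apart by a few high mice of series 24, up to 10.70 and 6.33.

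Genes that follow hour of day, hormones and stress gave few calls. None of 11 core clock genes was called and none had an unadjusted p under 0.05 (median 0.05). The clock output factors, 8 in number, had 0 calls (median 0.06) and glucocorticoid receptor targets 0 of 15 (median 0.04). The CREB targets, which answer to glucagon through cyclic AMP, had 10 of 10 genes above 0 and a median of 0.34, with 0 called and 4 at an unadjusted p under 0.05. G6pc, which releases glucose from its phosphate, differed by 0.35 (adjusted p = 0.185), Irs2, an insulin receptor substrate, by 0.43 (adjusted p = 0.199), and Pck1, of gluconeogenesis, by 0.06 (adjusted p = 0.617). Of 32 interferon-stimulated, 16 cytosolic ribosomal and 22 unfolded protein response genes none was called. Of 21 respiratory chain and ATP synthase genes Sdha and Atp5a1 were called, with 0.14 and 0.12 (adjusted p = 0.0486 and 0.0389), and neither remained without exercised control mice 3 and 6. The share called was 9.52%, against 4.33% of probe sets at a mean log2 level of 7 to 9 and 6.91% above 9, where both genes lay. Of 11 genes of vitamin E transport and metabolism, Sec14l4, related to lipid transfer proteins, was called with 0.22 (adjusted p = 0.0245). That is 9.09% of the list, against 4.33% at a mean log2 level of 7 to 9.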

How the data were processed

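Liver RNA of 44 mice was measured on 44 Affymetrix Mouse Gene 2.1 ST arrays. The deposited values are on the log2 scale, background-corrected and normalized over arrays by the authors with RMA (Expression Console), and were used without further normalization. A probe set was kept where its linear mean exceeded 4 in 1 or more of the diet and exercise groups, as in the study's methods, which left 18522 of 41345. Of these, 11565 had 1 gene symbol in the platform annotation. No 2 arrays held identical values, and the number of mice limits the precision.

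The number series was read from the animal number in the description. Differences between series 27 and 24 were fitted in limma 3.58.1 (R 4.3.3) with the 4 groups as a covariate, and p-values were adjusted over all tested probe sets by the Benjamini-Hochberg method at 0.05. Within-group differences and the interaction came from a fit with 8 group means. The fits were tested on simulated data. Genes were named by rule, per direction from called probe sets with the same sign in all groups: the 12 largest differences and the 5 smallest p. To these came the 8 smallest interaction p and up to 4 genes a list. Provisional names and symbols starting with Mir, Snor, Scarna or n-R5 were left out of the choice by difference and p. Further list members, as for cholesterol synthesis, and small RNAs such as Rnu11 and the microRNA genes were named outside this rule. A few other genes are marked as chosen later. A gene with several probe sets is represented in lists by the one with the highest mean. The comparison, the gene lists and the tests were chosen with earlier results of these data known. Some genes are not reported here. Replicate numbers of the titles do not pair mice across groups: the mean correlation of their deviations was -0.0123 over 62 pairs. Figures were drawn with Python 3.11.15.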

Additional observations from a re-analysis of the deposited data

Results flagged for a closer look

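Within the 8 sets of 4 to 6 mice that share group and number series, single mice lay far from the rest of their set in the named genes and in the means of 7 gene lists. The gap of such a mouse to its nearest neighbour, as a share of the range of the set, passed Dixon's 95% critical value, a limit built so that chance passes it in about 1 in 20 sets. This was so in 24 of 360 sets (6.67%); 15 lay in series 24 and 9 in series 27. Each is given as its log2 level beside the range of the other mice of its set.

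Sqle was at 7.97 in exercised control mouse 8 of series 27, against 6.70 to 7.04. In exercised control mouse 6 of series 24, Nsdhl was at 6.07 and in the others at 7.24 to 7.92. Susd4 was at 3.89 in sedentary vitamin E mouse 2 of series 24, against 4.62 to 4.86. In exercised control mouse 3 of series 24, Abcc3 was at 5.53 and in the others at 6.89 to 7.46. Hsd17b7 was at 7.17 in exercised vitamin E mouse 3 of series 24, against 6.42 to 6.62. In exercised vitamin E mouse 7 of series 27, Hsd17b7 was at 6.72 and in the others at 7.25 to 7.42. Cyp51 was at 6.05 in sedentary control mouse 3 of series 24, against 6.64 to 6.88. In exercised vitamin E mouse 3 of series 24, Msmo1 was at 7.74 and in the others at 6.50 to 6.92. Aldh7a1 was at 8.65 in exercised control mouse 9 of series 27, against 8.55 to 8.59. In sedentary vitamin E mouse 1 of series 24, Wfdc2 was at 5.84 and in the others at 4.14 to 4.53. Tcf24 was at 4.24 in sedentary control mouse 4 of series 24, against 2.21 to 2.77. In exercised control mouse 4 of series 24, D5Ertd579e was at 3.25 and in the others at 1.57 to 2.13. D5Ertd579e was at 2.76 in sedentary control mouse 10 of series 27, against 1.69 to 1.85. In exercised vitamin E mouse 3 of series 24, Tceal9 was at 5.69 and in the others at 5.09 to 5.17. Klf2 was at 2.70 in exercised control mouse 9 of series 27, against 1.81 to 2.14. In sedentary control mouse 9 of series 27, Rpl41 was at 10.71 and in the others at 10.93 to 10.97. Lilrb4a was at 1.94 in exercised control mouse 12 of series 27, against 3.43 to 4.14. In exercised vitamin E mouse 11 of series 27, Lilrb4a was at 4.07 and in the others at 3.07 to 3.22.

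The mean of the list cholesterol synthesis was 7.65 in exercised vitamin E mouse 3 of series 24, against 6.63 to 6.95. In sedentary control mouse 7 of series 27 the mean of the list fatty acid oxidation and PPAR-alpha targets was 7.38, and in the others 7.65 to 7.67. The mean of the list acute-phase proteins was 9.35 in exercised vitamin E mouse 2 of series 24, against 8.22 to 8.51. In sedentary vitamin E mouse 1 of series 24 the mean of the list acute-phase proteins was 9.87, and in the others 8.14 to 8.39. The mean of the list Kupffer cell and macrophage was 6.33 in exercised control mouse 6 of series 24, against 4.39 to 5.08. In exercised vitamin E mouse 2 of series 24 the mean of the list Kupffer cell and macrophage was 5.95, and in the others 4.37 to 4.64. Exercised vitamin E mouse 3 of series 24 was set apart in 4 of these, by high Hsd17b7, Msmo1 and Tceal9 and by the cholesterol synthesis list, and the causes were not tested.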

How the results depend on the processing

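The 334 calls between the series stayed within 1.5 times that number under equal weight of the groups, a stricter filter, quantile normalization, median centring, trend and robust settings, array weights, only probe sets with 1 symbol, no group covariate, and without exercised control mice 3 and 6 (225 to 469 over these and the fit without 4 mice, which was chosen after seeing the data). With no filter 133 were called, of which 126 were among the 334. With a difference above 1.2-fold as a second criterion there were 199. In subsets with fewer mice there were 0 calls in sedentary, 5 in exercised, 0 in control-fed and 0 in vitamin E-fed mice, with 1705, 1727, 1605 and 1738 probe sets at an unadjusted p under 0.05. Leaving out each mouse in turn gave 247 to 354 calls. With the replicate number as a random replicate block 254 were called, all among the 334; nearly all numbers occur in only 1 series. Within exercised control mice the 3 calls became 0 with no filter, 1 after quantile normalization and 0 when that group was fitted alone, and 0 to 8 when 1 of its mice was left out, and within exercised vitamin E mice 0 to 1; in both sedentary groups and for the interaction these counts were 0 throughout (range 0 to 0). None of 46 called probe sets named in the text changed direction under any alternative run; 25 kept the call with no filter, 41 after quantile normalization, 38 with the replicate block and 31 without the 4 mice. Tceal9, Sdha, Klf2, Ehhadh, Insig1, Neat1, Oit3 and Csad were near the threshold, each losing the call in at least 22 of the 44 fits without 1 mouse for at least 1 probe set. By level, 0.485% of probe sets with a mean log2 level under 3 were called, against 6.91% of those above 9; the cause was not tested.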

Other observations

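Other genes called between the series were picked out after their values were seen. Decr1, a reductase for unsaturated fatty acids in beta-oxidation, was higher in series 27 by 0.29 (adjusted p = 0.00365 in limma), and Acsf2, an acyl-CoA synthetase, by 0.29 (adjusted p = 0.00355). Ugdh, which makes the UDP-glucuronate used in conjugation, was higher by 0.28 (adjusted p = 0.00474), the sulfite oxidase gene Suox by 0.33 (adjusted p = 0.00285) and the aldehyde oxidase gene Aox1 by 0.50 (adjusted p = 0.012). Irs1, an insulin receptor substrate, was higher by 0.40 (adjusted p = 0.0237), Tgfa, a ligand of the EGF receptor, by 0.40 (adjusted p = 0.01) and the prostaglandin carrier Slco2a1 by 0.38 (adjusted p = 0.00298). Each of these differences had the same sign in all 4 groups.

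The share of called probe sets rose with the level, from 1.32% at a mean log2 level of 3 to 5, over 2.15% at 5 to 7, to 4.33% at 7 to 9. The larger spread of series 24 was smaller without the 4 outlying mice, where 57.9% of probe sets varied more in series 24 (median standard deviation 0.32 against 0.307).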
